A study of Mus musculus with 12 samples.

Results

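The regions described here are stretches of the mouse genome at which an H4K12ac peak was called in more *Tip60* cKO than control mice. H4K12ac, acetylation of lysine 12 of histone H4, was measured by ChIP-Seq in sorted neuronal nuclei of the hippocampus. Overlapping autosomal peaks of the 10 mice were merged into 256014 regions, and for each region the peak lists that held a peak in it were counted. Gained regions were selected on these counts: the number of *Tip60* cKO lists minus the number of control lists with a peak had to be 4 or 5. This rule kept 717 regions, of which 489 had a peak in 4 *Tip60* cKO and 0 control lists, 56 in 5 and 0, and 172 in 5 and 1. They made up 0.280% of all merged regions. By the mirrored rule 3246 regions were lost, or 1.27% of all. Because the selection used the genotype contrast itself in all 10 libraries, the counts and peak values of these regions are given as descriptions and were not tested.

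The *Tip60* cKO mice (n = 5) were homozygous for a floxed *Tip60* gene and carried CaMKCreERT2, a transgene with tamoxifen-inducible Cre under *Camk2a* control. The control mice (n = 5) carried the same floxed alleles without Cre. Each library came from its own mouse. Both groups received tamoxifen as young adults, and nuclei were taken on day 10 after the last injection. The labels give male C57BL/6J mice at the age of 3 months for both groups. The study's methods instead give either sex, and a C57BL/6N background for the Cre line and the floxed *Tip60* line alike. The Cre line acts in excitatory forebrain neurons, so other neurons of the sorted hippocampal population keep TIP60, and fewer acetylated nuclei cannot be told apart from less acetylation per nucleus. One pooled input library per genotype (43391269 and 44889280 tags for *Tip60* cKO and control) served as background for all 5 mice of that genotype, which means that input and genotype cannot be told apart. The ChIP libraries of *Tip60* cKO mice held 22864189 to 37077725 tags, those of control mice 27418740 to 37923809. Their autosomal lists held 64012 to 134930 and 93136 to 135680 peaks. *Tip60* cKO mouse 5 had both the fewest tags and the shortest list. At the transcription start sites of defining markers, 7 of 9 neuronal genes had a peak in all 10 lists, among them *Rbfox3*, *Snap25* and *Slc17a7*. The GABAergic markers *Gad1* and *Gad2* had a peak in 0 and 1 list. Of the 5 microglial markers 4 had no peak in any list, and the astrocyte and endothelial markers had a peak in at most 9 and 1 lists. The oligodendrocyte genes *Mbp* and *Cnp* had a peak in all 10, while *Mog* and *Mag* had none.

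Histone acetylation loosens the contact between nucleosomes and DNA and is found at promoters and enhancers in use and along transcribed genes. TIP60 (KAT5) is the catalytic subunit of an acetyltransferase complex that acetylates histone H4, including lysine 12, and the variant H2A.Z. Other acetyltransferases and the deacetylases act on the same residues. The comparison addressed where in the neuronal genome this acetylation differs once TIP60 is lost, and the gained regions are the smaller of the 2 directions.

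Sequences of 5 gained regions show the kinds of DNA involved. Each is 300 bases of the plus strand of mm10 (RefSeq, GRCm38.p6) around the median summit of the *Tip60* cKO peaks. In the first 4, capitals mark CpG dinucleotides. The first 3 are the strongest regions away from promoters, by their rank within each list, with a peak in all 5 *Tip60* cKO and 0 control lists: introns of *Farp1* (chr14:121201387-121201686), a regulator of synapse formation, and of *Map7d1* (chr4:126250699-126250998) and *Eml1* (chr12:108471220-108471519), both microtubule-associated proteins. The fourth is the highest ranked protein-coding promoter region with a peak in all 5 *Tip60* cKO lists whose window lay outside annotated UTRs, that of *Kri1* (chr9:21288080-21288379), a ribosome biogenesis factor, and it overlaps *Cdkn2d*. The fifth lies among the small nucleolar RNA genes inside *Snhg14* (chr7:59769789-59770088); there, capitals mark the bases lying in 50-base words found more than once within *Snhg14*.
Farp1: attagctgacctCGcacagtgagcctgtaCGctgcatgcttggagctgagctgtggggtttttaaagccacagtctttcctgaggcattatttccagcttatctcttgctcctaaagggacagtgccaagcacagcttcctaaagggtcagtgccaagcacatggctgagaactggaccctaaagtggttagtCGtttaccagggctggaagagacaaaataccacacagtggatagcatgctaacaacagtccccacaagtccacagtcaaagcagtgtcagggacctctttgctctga
Map7d1: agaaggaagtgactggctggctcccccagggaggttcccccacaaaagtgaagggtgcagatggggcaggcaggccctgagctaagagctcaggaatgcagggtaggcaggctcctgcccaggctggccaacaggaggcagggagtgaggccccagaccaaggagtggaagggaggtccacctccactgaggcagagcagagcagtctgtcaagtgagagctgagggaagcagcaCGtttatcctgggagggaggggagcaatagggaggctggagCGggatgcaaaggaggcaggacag
Eml1: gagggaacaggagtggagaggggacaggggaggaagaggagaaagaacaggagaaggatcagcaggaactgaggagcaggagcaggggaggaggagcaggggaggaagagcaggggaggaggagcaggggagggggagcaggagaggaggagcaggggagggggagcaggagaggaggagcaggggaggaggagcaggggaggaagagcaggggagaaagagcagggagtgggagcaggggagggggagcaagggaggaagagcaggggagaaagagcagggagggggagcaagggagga
Kri1: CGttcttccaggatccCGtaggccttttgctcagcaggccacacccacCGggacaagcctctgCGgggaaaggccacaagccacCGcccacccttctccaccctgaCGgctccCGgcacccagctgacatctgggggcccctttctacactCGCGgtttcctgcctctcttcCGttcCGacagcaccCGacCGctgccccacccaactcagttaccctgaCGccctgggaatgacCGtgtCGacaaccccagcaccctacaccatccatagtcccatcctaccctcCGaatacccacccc
Snhg14: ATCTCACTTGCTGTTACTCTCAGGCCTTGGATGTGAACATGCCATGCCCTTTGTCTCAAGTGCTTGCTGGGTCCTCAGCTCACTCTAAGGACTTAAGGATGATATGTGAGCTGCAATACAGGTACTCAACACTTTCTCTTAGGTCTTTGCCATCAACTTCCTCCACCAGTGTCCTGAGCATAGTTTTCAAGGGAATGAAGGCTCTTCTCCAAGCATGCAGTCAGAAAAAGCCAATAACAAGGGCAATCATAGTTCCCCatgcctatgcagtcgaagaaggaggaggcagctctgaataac
The *Farp1* and *Map7d1* windows held 3 and 2 CpG dinucleotides. The *Eml1* window held 0 and was a purine-rich run with 84.7% of its bases repeat-masked. The *Kri1* window held 17 CpG dinucleotides. In the *Snhg14* window 258 of the 300 bases lay in repeated words.

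The number of regions fell steeply from small to large differences and was lopsided towards control. At a difference of 3 there were 3298 regions with more *Tip60* cKO lists and 9087 with more control lists. At 4 the numbers were 661 and 2710, and at 5 they were 56 and 536. The excess towards control moved with the lists and the rule used. There were 4.53 lost regions per gained region over all lists. The ratio was 1.72 with lists cut to the same number of peaks, 1.59 in lane 7 alone and 1.35 without *Tip60* cKO mouse 5. It was 5.45 in lane 8 alone, 8.26 without control mouse 4 and 9.57 at a difference of 5. Where a peak had to cover 50% of a region it was 11.0. In a smaller group the rule is also looser, so the values without a mouse or a lane do not reflect the lists alone. Members just inside the limit had about the strength of the regions just outside it. The median percent rank of their *Tip60* cKO peaks, the place of a peak's fold enrichment in its own list from 0 (weakest) to 100 (strongest), was 43.4 at a difference of 4 and 43.0 at a difference of 3. A peak was called in 96.1%, 89.8%, 92.7%, 88.7% and 64.4% of the 717 regions in *Tip60* cKO mice 1 to 5, so that mouse 5 contributed least. Of the 489 regions with 4 *Tip60* cKO lists, 255 (52.1%) lacked a peak in mouse 5, against 28, 73, 52 and 81 in mice 1 to 4.

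**Figure D1:**
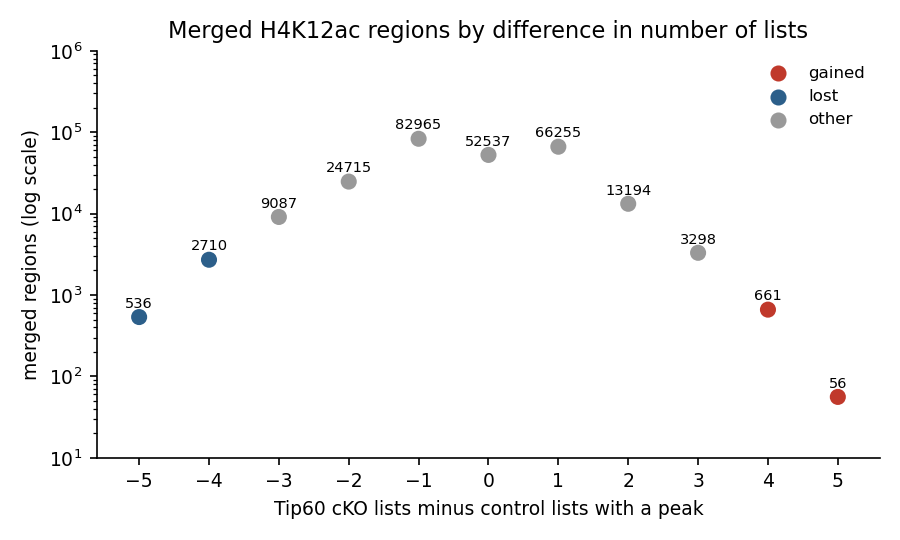
Number of merged autosomal regions (log axis) by the number of *Tip60* cKO lists minus control lists with a peak, with gained regions in red and lost regions in blue. The points on the control side lie above those on the *Tip60* cKO side at each size of difference, 536 against 56 at the far ends.

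Gained regions ranked lower than the regions found in every list. Their median percent rank in the 5 *Tip60* cKO lists was 44.2, 43.8, 47.4, 35.3 and 38.0 (mean of medians 41.7 ± 4.96, SD, n = 5). Regions with a peak in all 10 lists stood at 74.5 to 88.6 in the same libraries. In the full lists the gained peaks thus sat just below the middle, about where the regions found in 4 to 6 of the 10 lists sat (34.8 to 44.2), a set of comparison added after the values were seen. Their mean rank, 42.9 over these lists, was 55.7 where a peak had to cover 50% of a region. For the regions gained with only the strongest 64012 peaks of each list it was 64.5 in the full lists and 45.1 within the shortened ones, the last of these added after seeing the data. Between 8.44% and 14.1% of them reached the top 25% of their list. Averaged over the mice with a peak, 214 of the 717 regions ranked above 50 and 6 above 75, 5 of which also had a peak in 1 control list. Within one region the mice differed widely: the median SD of the rank was 21.1. The median −log10 q was 3.21 to 3.64, against 3.77 to 4.13 for all autosomal peaks of these lists. Summits of one region lay 266 bp apart at the median between its *Tip60* cKO mice (quartiles 169 and 396 bp), and in 442 regions (61.6%) all those mice's peaks had a base in common.

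By position the gained regions were mostly far from promoters. At promoters, taken as 2 kb on either side of an annotated start site, lay 103 of them (14.4%, 95% Wilson interval 12.0% to 17.1%, counting error only). The share was 13.3% of lost regions, 13.1% of the regions in 4 to 6 lists and 46.2% of those in all 10. A further 507 (70.7%) lay inside genes and 107 (14.9%) between genes, whereas 23.8% of lost regions and 19.1% of regions in 4 to 6 lists were intergenic. The median distance to a start site was 17444 bp, close to 18486 bp for lost regions and far from the 4501 bp of regions in all 10 lists. Of the 103 promoter regions 49 (47.6%) lay at a protein-coding gene, compared with 60.7% of the lost and 57.4% of the promoter regions in 4 to 6 lists. The rest included 10 at small nucleolar RNA genes and 9 at microRNA genes, one of them at the *Mir181a-1* and *Mir181b-1* pair. Of the 103, 9 lay at small nucleolar RNA genes inside a single locus, *Snhg14*, described further on. Without it 94 promoter regions remained, with the same 49 at protein-coding genes. The median width was 582 bp (638 bp for lost regions).

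In base composition the gained regions lay close to other regions of like abundance. In the 300 bases around the summit their median GC content was 52.3%, against 51.7% for regions in 4 to 6 lists and 58.0% for regions in all 10. The median ratio of observed to expected CpG was 0.203, 0.211 and 0.417 in the same order. Windows with GC content above 50% and a CpG ratio above 0.6 made up 3.77% of gained regions, 3.41% of those in 4 to 6 lists and 36.9% of those in all 10. Repeat-masked bases averaged 12.5% and 12.1% in the first 2 of these sets. Most gained regions were thus CpG-poor sequence like that printed for *Farp1* and *Map7d1*.

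Of 15 short motifs searched on both strands, the common ones occurred at nearly the same rate in gained regions and in regions in 4 to 6 lists. The AP-1 site TGANTCA, bound by FOS and JUN, was in 7.39% and 8.42%. The E-box CACGTG was in 6.28% and 5.05%, and the bHLH sites CAGATG and CAGCTG were in 25.9% and 27.02%, and in 25.9% and 23.5%. The GC box GGGCGG, bound by SP factors, was in 9.07% and 8.43%. A pair of rare motifs had higher shares: the ETS site CCGGAAGT and the E2F site TTTNGCGC were each in 9 gained regions (1.26%), against 0.384% and 0.407% of regions in 4 to 6 lists and 0.505% and 0.433% of all regions in at least 2 lists. They had the highest ratios of the 15 motifs and rest on 9 regions each. The E2F matches included promoter regions of *Zfp367* and *Gtf2f2*, and the ETS matches that of *Lrrc41* and *Uqcrh*. The CRE TGACGTCA, bound by CREB, was in 3 (0.418% against 0.265%), in *Cadm1*, *Scn8a* and again at *Zfp367*. EGR (GCGTGGGCG), MEF2 (CTATTTATA) and CTCF core (AGGGGGCGC) letters were in 0 gained windows and in 0.12%, 0.199% and 0.171% of windows in 4 to 6 lists. A match is only a run of letters, not evidence of binding.

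A total of 7 promoter regions had a peak in all 5 *Tip60* cKO and 0 control lists, and *Bmp2* was the only protein-coding gene among them. *Bmp2* encodes a ligand of the BMP family, which signals through SMAD proteins. Its region (chr2:133552198-133553089) overlaps an exon, and its centre lies 484 bp from the start site. Pileup, the number of overlapping fragments at the summit, was 15, 12, 16, 20 and 11 in *Tip60* cKO mice 1 to 5. The percent rank was 44.2, 13.2, 58.0, 81.9 and 28.6, so the same region was a strong peak in mouse 4 and a very weak one in mouse 2. The 300 bases around its summit were CpG-rich, with 33 CpG dinucleotides, a CpG ratio of 0.868 and 2 GC boxes. The other 6 lay at the small nucleolar RNA, microRNA, lincRNA, pseudogene or processed-transcript entries *Gm25210*, *Snord116l17*, *Gm22420*, *Gm41253*, *Gm11701* and *Gm12409*. The first pair lies inside *Snhg14*, described further on.

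Away from promoters 49 regions had a peak in 5 *Tip60* cKO and 0 control lists, and the 10 strongest all lay inside protein-coding genes. The *Farp1* region (chr14:121201067-121201824) led with a mean percent rank of 72.3 ± 11.7 (SD, n = 5) and pileups of 21, 17, 22, 20 and 15. The *Map7d1* region followed at 69.2 ± 9.32, with pileups of 19, 17, 16, 19 and 14. The *Eml1* region stood at 63.8 ± 17.4, with pileups of 18, 15, 22, 17 and 12. In these 3, mouse 5, with the fewest tags, had the lowest pileup. The next were in *Zfp608* (63.1), a zinc finger gene, *Morn1* (62.5) and *Oxsr1* (60.7), a kinase of the WNK pathway that controls ion transport; the last region also overlaps an exon and the neighbouring gene *Slc22a14*. Several others lay in genes with synaptic or signalling roles. *Dlgap1*, a scaffold protein of the postsynaptic density, had a region at 59.3 ± 20.8 that lay 286430 bp from its start site. *Ntrk2*, the receptor of BDNF, had one at 58.5 ± 16.8. *Foxk1*, a forkhead transcription factor, and *Dusp8*, a phosphatase of MAP kinases, closed the 10 with 58.1 ± 28.6 and 56.4 ± 16.7.

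**Figure D2:**
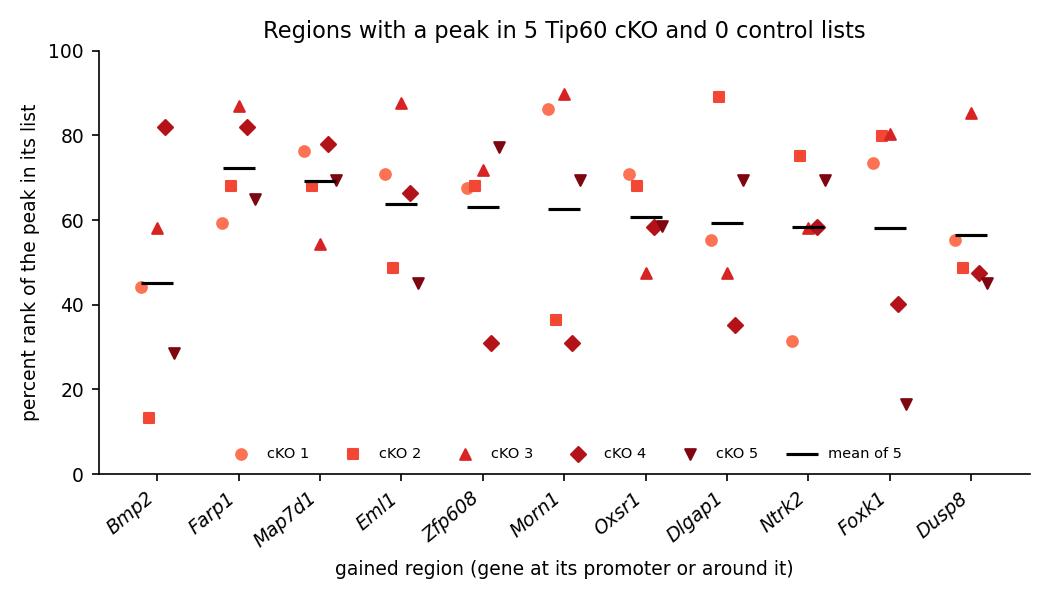
Percent rank of the peak in each *Tip60* cKO mouse (symbols) and the mean of 5 (bar) at the *Bmp2* promoter region and the 10 strongest regions elsewhere with a peak in 5 *Tip60* cKO and 0 control lists. Mice differ widely at one region, from 13.2 to 81.9 at *Bmp2*, and *Map7d1* and *Oxsr1* show the narrowest spread.

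Among protein-coding promoter regions with a peak in all 5 *Tip60* cKO lists, those with the highest mean rank also had a peak in 1 control list; they were picked out after their values were seen. At *Kti12* the *Tip60* cKO pileups were 24, 23, 21, 24 and 15, with a mean percent rank of 84.2 ± 7.84, the highest of all members. The 1 control peak there, in mouse 5, had a pileup of 25. Averaged over mice with a peak only, 5 protein-coding promoter regions with 4 *Tip60* cKO and 0 control lists ranked between *Kti12* and *Cdkn2c* (65.5). They stood at 66.7 to 76.7, among them those of the mitochondrial ribosomal protein gene *Mrpl16* (76.7) and of *Lrrc41* and *Uqcrh* (72.4). At *Cdkn2c*, an inhibitor of the cell cycle kinases CDK4 and CDK6, the pileups were 14, 17, 19, 24 and 13, and control mouse 1 reached 21. At *Kri1*, in a region overlapping the related inhibitor *Cdkn2d*, they were 23, 14, 17, 20 and 13, and control mouse 5 reached 26. In raw pileup the single control peak was thus higher than all 5 *Tip60* cKO peaks at *Kti12* and *Kri1*. At *Cdkn2c* it was higher than 4 of 5. These pileups are not corrected for depth, which was greatest in control mouse 5. Per tag, the *Kti12* peak of control mouse 5 (37923809 tags) was lower than those of *Tip60* cKO mice 3 and 4 (31282224 and 32934271 tags). The order at *Kri1* and *Cdkn2c* was the same per tag. The background that the peak caller set against the fragments also differed. Expressed as a multiple of the lowest background of the library, it was 1 to 1.12 in the *Tip60* cKO mice at *Kti12* and 1.46 in control mouse 5. It was 1 against 1.42 at *Cdkn2c*, and 1.02 to 1.03 against 1.46 at *Kri1*.

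A higher background in control was found at most gained regions where both genotypes had a peak. The 172 regions with 5 *Tip60* cKO lists and 1 control list set a mean of 5 peaks against 1 control peak. The control background was the higher in 144 (83.7%), with medians of 1.03 and 1.35 for *Tip60* cKO and control. Background enters the calling of peaks, by which these regions were chosen, so the values describe the chosen regions only. Pileup per 10000000 tags was higher in control in 117 of the 172 (68.02%, medians 4.95 and 5.33), close to the share in regions with 3 lists of each genotype (69.7%) and in the mirrored lost regions (69.3%). Fold enrichment, pileup over background, was lower in control, with medians of 3.68 and 3.18. In the mirrored 1108 lost regions, with 1 *Tip60* cKO peak against the mean of 5 control peaks, control background was the higher in 47.7%. In 3296 regions with 3 lists of each genotype, means of 3 against 3, control background was the higher in 70.8%. Over all gained regions 55.8% to 63.8% of *Tip60* cKO peaks stood on the lowest background of their library, compared with 44.3% to 56.8% of all their peaks. For control it was 9.30% to 25% at gained regions and 26.1% to 33.05% of all peaks, the former from 12 to 44 peaks a library. Since most gained regions held no control peak, peaks in or within 5 kb of a region were compared too, and 661 gained regions had such peaks of both genotypes. Their median backgrounds were 1.096 and 1.23, control being higher in 81.5%. For lost regions this was 68.6%, and for regions in 4 to 6 lists with a difference of at most 1 it was 75.1%. The part of the input background in the choice of gained regions was not tested.

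**Figure D3:**
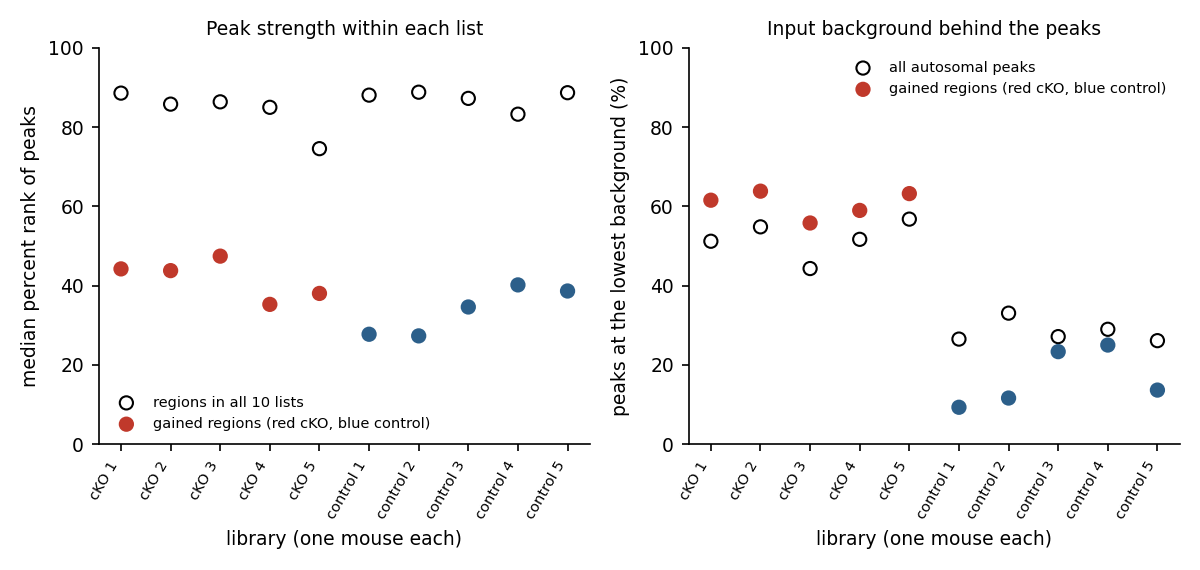
Left, median percent rank of gained regions (filled) and of regions in all 10 lists (open) in each library. Right, percent of peaks on the lowest input background of their library at gained regions (filled) and over all autosomal peaks (open). Gained regions lie at 27.3 to 47.4 in rank, and the filled points lie above the open ones in all 5 *Tip60* cKO libraries and below them in all 5 control libraries.

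To read gained regions in a mouse whose peaks were not counted in choosing them, each library was left out in turn. Regions were chosen by the other 9, with a difference in shares of lists of at least 0.75. The region limits came from the merge of all 10 lists, so the left-out mouse still had a part in them. The chosen regions had a peak in the left-out *Tip60* cKO mice in 60.9%, 41.9%, 47.3%, 36.7% and 17.2% of cases. In the left-out control mice it was 37.3%, 40.7%, 32.6%, 17.5% and 43.2%. The control range lay inside that of *Tip60* cKO (means 34.3 ± 10.2 and 40.8 ± 16.0, SD, n = 5), but these sets are not alike. Without a *Tip60* cKO mouse the rule also takes regions with a peak in only 3 of the other 9 lists, and these made up 825 of 1131 to 1714 of 2686 chosen regions. Without a control mouse it takes those in 4 to 6. The level to read the shares against, chosen after the values were seen, is therefore the share with a peak in the left-out mouse among all regions found in as many of the other 9 lists, whatever the genotype. It was 42.0%, 29.4%, 33.03%, 25.95% and 11.9% in *Tip60* cKO mice 1 to 5, and 55.8%, 59.3%, 50.4%, 34.3% and 62.6% in control. The chosen regions stood 5.27 to 18.96 percentage points above it in *Tip60* cKO mice and 16.8 to 19.4 points below it in control mice. Against all regions in 4 or 5 of the other 9 lists, the chosen regions stood 1.74 to 7.75 points higher in *Tip60* cKO mice. In control mice they stood 14.7 to 17.2 points lower. That set leaves out regions in only 3 of the other lists. In chosen regions with exactly 4 of the other 9 lists, which both groups have, a peak was found in 18.01% to 66.7% (84 to 311 regions a mouse) in *Tip60* cKO and in 11.6% to 34.2% (553 to 743 regions) in control, and these ranges overlapped. Against all regions in 4 of the other 9 lists these shares were 5.01 to 18.8 points higher in *Tip60* cKO mice and 16.1 to 21.8 points lower in control mice. With 50% coverage of a region required, the chosen regions stood 3.91 to 13.7 points above the level of as many lists in *Tip60* cKO mice. In control mice they stood at least 17.6 points below it. Against regions in 4 or 5 of the other 9 lists, the gap with 50% coverage was -1.07 to 3.38 points in *Tip60* cKO mice. It was -30.6 to -16.9 points in control mice. Every left-out mouse shared its input with its group. With the same number of peaks, 64012, taken from each library, the raw shares no longer overlapped. They were 39.9% to 53.0% in *Tip60* cKO mice, against 28.4% to 32.9% in control mice. Against the level of as many lists, the chosen regions then stood 11.8 to 17.7 points higher in *Tip60* cKO mice and 18.5 to 21.8 points lower in control mice.

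**Figure D4:**
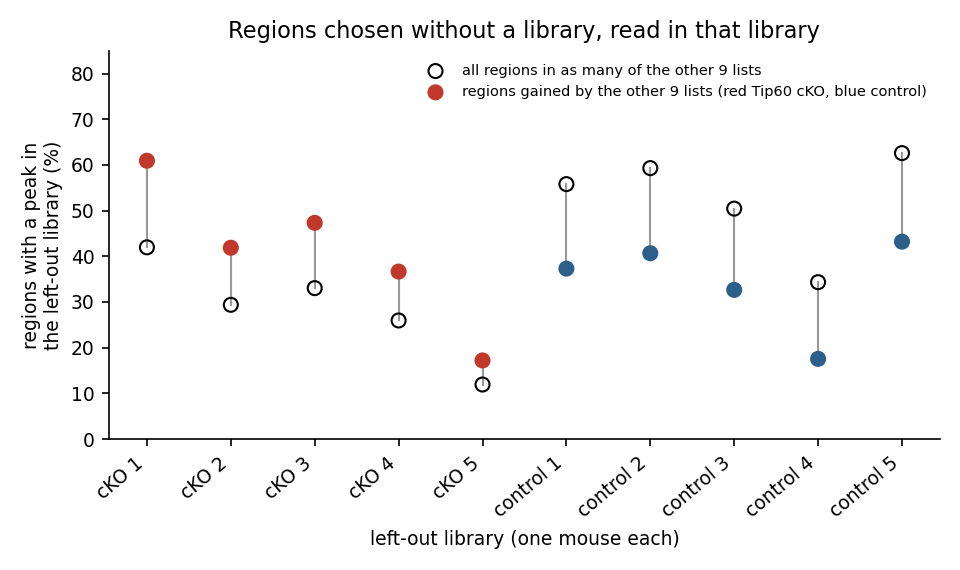
Percent of regions with a peak in a left-out library, for regions gained by the other 9 lists (filled, red *Tip60* cKO, blue control) and for all regions in as many of the other 9 lists (open). The filled point lies 5.27 to 18.96 points above the open one in the 5 *Tip60* cKO mice and 16.8 to 19.4 points below it in the 5 control mice.

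The sequencing lanes gave a second such reading. Mice 1 to 3 of each genotype were in lane 7 and mice 4 and 5 in lane 8. Lane 7 alone chose 1624 regions, those with a peak in its 3 *Tip60* cKO and 0 of its control lists. They had a peak in 38.5% and 17.7% of cases in *Tip60* cKO mice 4 and 5, and in 15.0% and 35.3% in control mice 4 and 5. The 1901 regions chosen in lane 8 had one in 43.0% to 55.5% of cases in the *Tip60* cKO mice of lane 7 and in 33.6% to 37.9% in its control mice. The raw shares of the genotypes separated in the second reading and overlapped in the first. In the first, the pair with short lists, *Tip60* cKO mouse 5 and control mouse 4, had the low values. No level of regions in as many lists was taken for the lanes, so list length is not removed from these shares.

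The gained regions were spread over all 19 autosomes, with 10.6 to 25.1 per 1000 regions in 4 to 6 lists, and 180 (25.1%) had another within 100 kb. Of windows of 1 Mb, 357 held 1 and 101 held 2 gained regions. The fullest window, at 59 to 60 Mb of chromosome 7, held 9 gained and 0 lost regions, and all 9 lay inside *Snhg14*. *Snhg14* (chr7:59307924-59975759, minus strand) is the long host transcript of repeated small nucleolar RNAs in the imprinted Prader-Willi and Angelman region. It is expressed from the paternal allele, and in neurons it runs antisense into *Ube3a*. The window also had the highest ratio of *Tip60* cKO to control share of peaks, 2.35, among the 1226 windows with a mean of at least 20 per 100000 peaks. Per 100000 peaks of the list, *Tip60* cKO mice had 91.9, 78.1, 85.4, 90.4 and 70.3 peaks in it, and control mice 37.6, 49.7, 26.6, 28.99 and 33.9. The lowest *Tip60* cKO value thus lay above the highest control value. Such a separation occurred in 39 windows (3.18%), and the opposite in 69 (5.63%).

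Inside *Snhg14* there were 167 merged regions, of which 119 had more *Tip60* cKO than control lists and 26 fewer. Over all merged regions the balance lay the other way. At a difference of 1 list 66255 had more *Tip60* cKO and 82965 more control lists, and at 2 the numbers were 13194 and 24715. Its peaks numbered 121, 85, 95, 89 and 41 in *Tip60* cKO mice and 46, 64, 30, 24 and 43 in control mice, so that in plain numbers *Tip60* cKO mouse 5, with its short list, fell within the control range. Peaks covered 1.65% to 6.42% of the gene in *Tip60* cKO and 1.20% to 3.36% in control. They were concentrated between 50 and 300 kb from the annotated start, where 56.2 to 86.4 per 100000 peaks lay in *Tip60* cKO and 24.7 to 46.7 in control. The 9 gained regions lay 80.6 to 271.5 kb from the start, each at small nucleolar RNA genes, which include *Snord116l17*, *Snord116l3* and *Snord116l1*. *Ube3a* and *Snrpn* on either side held 0 gained and 0 lost regions. A lean towards *Tip60* cKO was not confined to *Snhg14*. The next highest window ratios were 1.96 at 57 to 58 Mb of chromosome 13 and 1.64 at 109 to 110 Mb of chromosome 12, both with 0 gained regions. In the latter window the genotypes overlapped (14.1 to 42.6 and 11.2 to 17.6 per 100000 peaks). There, 10 of 15 merged regions in *Meg3* and 8 of 11 in *Rian* had more *Tip60* cKO lists, and 3 and 1 had fewer.

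**Figure D5:**
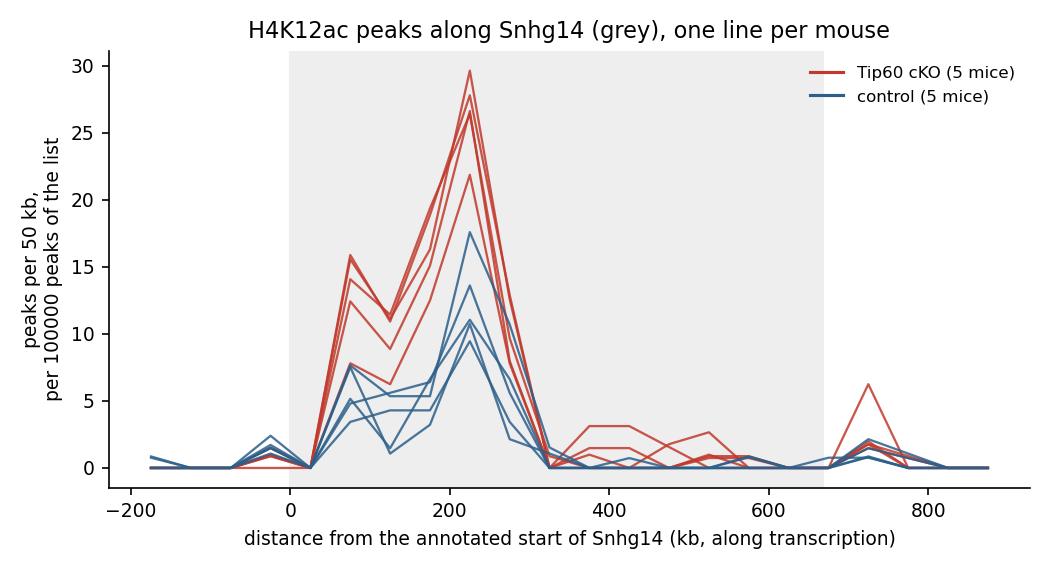
Peaks per 50 kb, per 100000 peaks of the list, by distance from the annotated start of *Snhg14* (grey, 668 kb long), with 1 line for each mouse. The *Tip60* cKO lines reach their highest values between 50 and 300 kb, and both genotypes are near 0 in most bins outside that span. At 250 to 300 kb control mouse 2 (10.7) lies above *Tip60* cKO mice 2, 3 and 5 (7.99, 9.68 and 7.81).

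The sequence inside *Snhg14* limits these values. It holds 208 annotated small nucleolar RNA genes, and 60.1% of its 50-base words occur in it more than once. In 8 of the 9 gained regions at least 50% of the words were repeated, and in 2 all of them, so that a read of that length could come from any of several copies, and the 9 regions share sequence. In the region printed above (chr7:59769735-59770614) the pileups were 34, 30, 44, 32 and 29 in *Tip60* cKO and 45 in control mouse 2, on backgrounds of 1.93 to 2.71 and of 6.94 times the lowest. Over the peaks inside *Snhg14* the median background was 1.42 to 1.55 in *Tip60* cKO libraries and 1.58 to 1.81 in control libraries. In the 72 regions of *Snhg14* with peaks of both genotypes, pileup per 10000000 tags was higher in control in 36 (50%, against 69.7% of regions with 3 lists of each genotype and 88.5% of regions in all 10 lists) and had medians of 6.48 and 6.35 for *Tip60* cKO and control. Background was the higher in control in 50 of the 72 (69.4%), a share close to the 70.8% of regions with 3 lists of each genotype and the 71.8% of regions in all 10 lists. The part of background and repeated sequence in the difference was not tested.

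The next windows were in chromosome 6, at 112 to 113 Mb, with 7 gained and 5 lost regions, and in chromosomes 5 and 10 with 5 gained regions each, at 142 to 143 Mb and 127 to 128 Mb, beside 6 and 4 lost regions. In the first, 6 regions lay in *Srgap3*, a GTPase-activating protein that acts in Slit-Robo signalling. *Srgap3* had no lost region, and its peaks per 100000 of the list were 87.0 to 113.5 in *Tip60* cKO mice, against 65.5 to 88.4 in control mice. The ranges overlapped, and the median background was 1.09 to 1.16 and 1.24 to 1.33. *Lrp1*, an endocytic receptor for apolipoprotein E, held 3 gained and 0 lost regions in the chromosome 10 window, where *Kif5a*, a kinesin motor, and *R3hdm2* held 1 each. The chromosome 5 window held regions in *Foxk1* and *Tnrc18* and at the promoter of *Slc29a4*, a monoamine transporter.

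In all, 568 genes of any kind had a gained region in their body, 72 had at least 2 and 19 at least 3. After *Snhg14* and *Srgap3* came *Magi2*, a synaptic scaffold, and the 4435 kb gene model *Gm20388*, with 5 gained regions each and 4 and 18 lost ones. They were followed by *Grin2b*, an NMDA receptor subunit, *Opcml*, a neuronal adhesion molecule, the zinc finger gene *Hivep3*, and *Fam135b*, with 4 gained each and 2, 2, 2 and 1 lost. *Fyn*, a Src family kinase, and *Tenm4*, a teneurin, had 3 gained and 0 lost. *Kcnma1*, the BK potassium channel, *Syt1*, the calcium sensor of transmitter release, and *Dlgap1* each had 3 gained and 4 lost. In *Tenm2*, another teneurin, and *Fgfr2*, a receptor of fibroblast growth factors, the 3 gained regions stood beside 8 and 7 lost ones. Most of these genes thus held regions of both kinds. They differ in how many merged regions they hold: 1386 in *Gm20388*, 658 in *Fgfr2*, 602 in *Tenm2* and 428 in *Magi2*, against 161 in *Srgap3*. Of all merged regions 0.280% were gained and 1.27% lost, and the counts per gene were not tested against these shares.

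Of 15388 protein-coding genes with a merged region, 509 (3.31%) had a gained region at the promoter or in the body and 1603 (10.4%) a lost one. The lists of glutamate receptor, potassium channel and synaptic adhesion genes held larger shares of both, a difference that was not tested. Of 25 glutamate receptor genes 5 had a gained region (*Gria2*, *Grin1*, *Grin2b*, *Grin3a*, *Grm4*) and 8 a lost one. Of 54 potassium channel genes 8 and 14 did, and of 50 synaptic adhesion genes 4 and 11. The median gene length was 319 kb for the glutamate receptors, 144 kb for synaptic adhesion and 50.4 kb for potassium channels, against 24.2 kb for all protein-coding genes, and all of their gained regions lay in gene bodies. In the other lists given here 0 to 2 members held one. It was 1 of 35 DNA replication genes (*Rfc5*), 2 of 31 cell cycle genes (*Cdkn2c*, *Cdkn2d*), 2 of 45 BMP and TGF-beta genes (*Bmp2*, *Smad3*), 1 of 16 calcium/calmodulin kinase genes (*Camk1d*) and 1 of 46 acetyltransferase and deacetylase genes (*Ep400*, a subunit of the TIP60 complex). None of 22 immediate early genes, 56 developmental transcription factors or 38 imprinted genes on the list had a gained region; *Snhg14* was not on it. At the promoter itself only *Bmp2* and *Cdkn2c* of all list members had one. *Kat5*, the gene of TIP60, held 4 merged regions, 0 gained and 0 lost; the floxed exons were not examined on their own, so this does not check the deletion.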

How the data were processed

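H4K12ac ChIP-Seq was measured in 10 mice. Per the study's methods the authors mapped reads to mm10 with STAR, removed duplicates with SAMtools and pooled the input chromatin. Per the file headers peak calling used MACS 2.1.0.20140616 with a q limit of 0.1, each library against 1 input library of its genotype. The deposited lists give pileup, a coverage signal in fragments, fold enrichment (a ratio of pileup to background), and −log10 p-values and q-values; per the file headers the input was scaled down to the ChIP library. The background was recomputed from pileup and fold enrichment. Peaks of the 19 autosomes that shared at least 1 base were merged with pandas 2.3.3, and positions were annotated with GENCODE vM21. Percent rank is the place of a fold enrichment among all autosomal peaks of its list. The merging and counting were tested on simulated lists. Regions (number, share at promoters, rank, held-out shares) were compared by description, with no test, since the selection used the contrast. The members and gene lists were chosen with earlier results of these data known; 2 of the gene lists are not reported here. Named were the strongest 10 regions with 5 and 0 lists at protein-coding promoters and elsewhere, the 3 fullest windows of 1 Mb, and promoter regions of listed genes; the 10 protein-coding promoter regions of any member with the highest mean rank (a mouse without a peak counted as 0), regions in 4 to 6 lists and the level for held-out shares were added after the data were seen. Tried were a q of 0.01, lists of equal length, coverage of at least 50% of the region, a difference of 5, each library or lane left out, other promoter definitions, rank by pileup, and leaving out the 2 Mb around *Camk2a* or, added later, *Snhg14*. Signal where no peak was called is unknown. Sequence windows were centred on the median summit, not on the mean first planned. Sequences and motifs come from the RefSeq copy of GRCm38.p6, the same assembly as mm10. Tags numbered 22864189 to 37923809 a library, and the interval given covers counting error only.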

Additional observations from a re-analysis of the deposited data

Results flagged for a closer look

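Mouse 2 of each genotype stood apart from the other 4, by the gap test for single samples, in peaks on chromosome Y, which the selection left out. *Tip60* cKO mouse 2 had 64 such peaks and the other 4 had 1 to 5; control mouse 2 had 68 and the others 1 to 6. The labels give all mice as male while the study's methods give either sex, and the difference was not tested further. The gaps were 0.937 and 0.925 of the range in *Tip60* cKO and control. By chance alone about 1 in 20 groups of 5 passes the limit of 0.71, and 8 series were screened.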

How the results depend on the processing

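The number of gained regions depended on the list lengths and on the rule. Leaving out 1 mouse, with a difference in shares of at least 0.75, gave 866 to 2695 gained and 3626 to 7156 lost regions, 118 to 314 gained promoter regions, 11.7% to 14.8% of gained regions at promoters and a mean rank of 40.6 to 44.6; the reported values were 717, 3246, 103, 14.4% and 42.9. The low and high counts of gained regions came without control mouse 4 and without *Tip60* cKO mouse 5, those of lost regions the other way round. A smaller group loosens that rule. With equal lists of 64012 peaks 1089 regions were gained and 1870 lost, 178 gained at promoters, at a mean rank of 64.5 (45.1 within the shortened lists), so that lost regions exceeded gained ones 1.72-fold instead of 4.53-fold. When a peak had to cover 50% of the region, 329 were gained, 68 of them at promoters (20.7%), at rank 55.7. A difference of 5 left 56 gained, 536 lost and 7 gained promoter regions. Lane 7 alone, merged from its own lists, gave 1713 gained and 189 promoter regions (11.0%). Lane 8 alone gave 2329, 12692 and 323 for gained, lost and promoter. A q of 0.01 moved the rank to 46.5, and ranking by pileup to 38.2. Promoters of 1 kb gave 10.04%, and all transcript ends 165 regions (23.0%). The held-out shares stayed within 1 SD of their reported values with a q of 0.01, with equal lists and without *Camk2a* or *Snhg14*. With 50% coverage, added for them after seeing the data, the control mean was 23.6% instead of 34.3%, more than 1 SD lower, and that of *Tip60* cKO 30.5% instead of 40.8%. Leaving out *Snhg14*, chosen after seeing the data, left 708 gained regions, and leaving out the 2 Mb around *Camk2a* 716. No paired analysis was possible because no test was run on regions that were chosen by the genotype contrast in these mice. A peak missing from a short list does not show that acetylation was absent.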

Other observations

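On chromosome X, outside the selection, 2 of 1364 merged regions had a difference of at least 4 lists towards *Tip60* cKO and 40 towards control. Over *Camk2a*, whose sequence the Cre transgene carries, the median background of peaks was 2.54 to 2.67 times the lowest in *Tip60* cKO libraries and 1.29 to 1.35 times in control libraries; *Camk2a* held 0 gained and 0 lost regions.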
